A study of Rattus norvegicus with 18 samples.

Results

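Ribociclib at 300 mg/kg/day was compared with palbociclib at 100 mg/kg/day in the jejunal mucosa of the rat, on 3 arrays a compound of the 18 arrays in the series. Members were the arrays whose treatment label names these compounds and doses, and the comparison covered 14217 genes, each read from the probe set with 1 gene symbol that was brightest over all arrays. The RNA came from mucosal scrapings of male Sprague Dawley rats aged 6 to 8 weeks, dosed once a day by oral gavage. Palbociclib was given in methylcellulose. Ribociclib was given in hydroxypropyl methylcellulose with a surfactant in an acid citrate buffer. The 3 vehicle arrays, used for reference, came from rats given methyl cellulose, so they match palbociclib and not ribociclib. The study dosed for 4 or 15 days, and the duration behind each array is not labelled. Compound, dose and vehicle therefore cannot be told apart in this comparison, and neither can any difference in duration. Nothing in the labels says that the replicates A to C came from separate animals, so p-values measure only the spread between these arrays.

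CDK4 and CDK6, which both drugs inhibit, are activated by D-type cyclins and phosphorylate RB, the retinoblastoma protein, which releases cells from G1 into S phase. In the small intestine this machinery serves the crypts, where stem cells and their dividing progeny renew an epithelium that is shed within days. Absorptive cells on the villi depend on mitochondrial respiration, which is set in part by the coactivator PGC-1α, and the epithelium changes its repertoire along its length, with iron and carotenoid uptake near the duodenum and bile acid uptake in the ileum. Ribociclib carries a pyrrolopyrimidine core where palbociclib carries a pyridopyrimidinone, while the cyclopentyl substituent and the pyridinylamine bearing a piperazine are common to both. The title of the study asks about intestinal toxicity in relation to that primary pharmacology. This was the single pair of compounds compared, at unequal doses.

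In all, 117 genes (0.823% of the 14217) differed between the compounds, 53 of them higher with ribociclib (0.373%) and 64 lower (0.45%), at an adjusted p under 0.05 in limma. Without adjustment 2100 genes had p under 0.05. None of the 117 had overlapping ribociclib and palbociclib arrays. Over all genes, 914 (6.43%) were wholly higher, meaning that each ribociclib array lay above each palbociclib array, and 1328 (9.34%) were wholly lower. The difference was at least 2-fold for 43 of the genes that rose and 46 of those that fell. In the same limma fit, ribociclib against vehicle called 531 genes (3.73%), 142 higher and 389 lower. Palbociclib against vehicle called 0 genes (0%), with 1023 at an unadjusted p under 0.05. The limma fit with only the palbociclib and vehicle arrays called 0 genes as well, with 1904 at an unadjusted p under 0.05. The same kind of fit for ribociclib against vehicle called 29, with 2392 at an unadjusted p under 0.05. Both contrasts with vehicle use the same vehicle arrays.

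The size of the call set depended on single arrays. It was 69 without palbociclib replicate A, 17 without palbociclib replicate B and 18 without palbociclib replicate C. It was 641 without ribociclib replicate A, 309 without ribociclib replicate B and 40 without ribociclib replicate C. With only the 6 arrays of these groups in the limma fit, 0 genes passed and 1524 had an unadjusted p under 0.05. Of the 117 genes, 13 were called in each of the 6 fits that left out an array. These were Maff, Mafk, Klf10, Adm and Tcim, which were higher with ribociclib, and Ppargc1a, Cited2, Il1b, Heatr5a, Ubac1, Trim32, Tmem268 and Sirt3, which were lower. Every other call was lost in at least 1 of these fits. Of the 117 genes, 16 were called without palbociclib replicate B and 16 without palbociclib replicate C.

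The ribociclib arrays were less alike than the palbociclib arrays. Replicates A and B of ribociclib correlated at r = 0.952 across genes, A and C at 0.967 and B and C at 0.975, against 0.983 to 0.989 for pairs of palbociclib arrays. Ribociclib replicate A carried more stromal and mitotic signal. Its median over 19 fibroblast and collagen genes was 1.57 log2 units above the palbociclib mean, against -0.25 and 0.74 in replicates B and C, and over 15 smooth muscle genes it was 1.29 above, against -0.17 and 0.14. The 3′ minus 5′ difference of the beta-actin control probes, a sign of RNA integrity, was 0.405, 0.404 and 0.897 log2 units on the ribociclib arrays and 0.503, 0.755 and 0.544 on the palbociclib arrays, so the groups overlapped. With this beta-actin difference as a covariate in the limma fit, 142 genes were called, 113 of them among the 117. The part of the other features in the differences between compounds was not tested. Villin (Vil1), which marks intestinal epithelium at every level of the gut, lay between 13.39 and 13.61 on all 6 arrays. It does not check that the tissue was jejunum. The ileal gene Fabp6 lay between 10.60 and 14.24 on the ribociclib arrays, and other genes that mark the level of the gut are given with it below. No detection calls were used, and a signal near the array medians of 5.40 to 5.51 is not shown to be above background.

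The fall with the smallest p was that of Ppargc1a, which encodes PGC-1α, the coactivator that drives mitochondrial biogenesis. Its log2 signal was 5.97, 6.77 and 6.08 with ribociclib, 8.59, 9.19 and 9.12 with palbociclib and 9.03, 8.61 and 8.60 with vehicle. All 3 ribociclib arrays lay below all arrays of the other groups named, and palbociclib and vehicle overlapped. The log2 difference between the compounds was -2.69 (SE 0.28, 95% interval -3.30 to -2.09), a 6.47-fold lower signal, with an adjusted p of 0.00074 in limma. The highest adjusted p with an array left out was 0.0117. The gene's other probe sets gave -3.37 and -3.23 and passed as well. At both abemaciclib doses Ppargc1a lay close to ribociclib, with means of 6.81 ± 0.42 (SD, n = 3) at 36 mg/kg/day and 6.79 ± 0.33 (SD, n = 3) at 120 mg/kg/day, whereas palbociclib at 30 mg/kg/day had a mean of 9.09 ± 0.35 (SD, n = 3).

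Sirt3 and Sirt5, mitochondrial NAD-dependent enzymes that remove acyl groups from metabolic proteins, also fell. Sirt3 measured 6.55, 6.67 and 6.59 with ribociclib, 7.84, 7.77 and 7.94 with palbociclib and 8.17, 7.98 and 7.79 with vehicle. The arrays of a compound were close together, with SDs of 0.06 and 0.08 (n = 3), and the compounds were far apart. The log2 difference was -1.25 (SE 0.16) with an adjusted p of 0.00233 in limma. Sirt5 measured 7.36, 7.09 and 6.89 with ribociclib against 8.11, 8.47 and 8.39 with palbociclib, a difference of -1.21 (SE 0.23, adjusted p = 0.0284 in limma). The Sirt5 call was lost without palbociclib replicate B (adjusted p = 0.141). The other 4 measured sirtuins did not pass, and over all genes 0.45% were called lower. The family was drawn up after the calls of Sirt3 and Sirt5 were seen.

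Genes of respiration had estimates below 0 almost throughout, mostly without passing singly. Of 26 respiratory chain genes, 1 was called, Atp5f1c of the ATP synthase, while 21 had no overlap between the compounds' arrays, all of them lower. Over all genes 9.34% were wholly lower. The median log2 difference over the 26 was -0.64. It was -0.30, -0.87 and -0.74 on ribociclib replicates A, B and C and lay between -0.10 and 0.11 on the palbociclib arrays. Every ribociclib array therefore lay below every palbociclib array, and replicate A was the nearest. Against vehicle the median was -0.50 for ribociclib and 0.09 for palbociclib. Without ribociclib replicate A, 17 of the 26 genes were called and the median was -0.80. Of all genes, 379 were called lower in that fit.

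Atp5f1c, the gamma subunit of the ATP synthase, measured 12.33, 11.70 and 11.80 with ribociclib and 12.66, 12.67 and 12.73 with palbociclib. The palbociclib arrays were nearly level and ribociclib replicate A was the closest to them. The difference was -0.74 (SE 0.16, adjusted p = 0.0368 in limma), and the adjusted p was 0.154 without palbociclib replicate B. Atp5f1c was called in 1 of the 6 fits that left out an array. Cyc1, cytochrome c1 of complex III, differed by -0.96 (SE 0.23) and Ndufs1, the largest subunit of complex I, by -0.82 (SE 0.19), with adjusted p-values of 0.0549 and 0.0532 in limma that missed the threshold. Sdha, the flavoprotein of complex II, measured 11.49, 11.14 and 11.11 against 11.89, 11.84 and 12.05 and missed it as well (adjusted p = 0.0534). The most negative estimate in the group was that of Ndufv1 at -1.10, and Ndufa1 alone of the 26 was above 0, at 0.04.

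Related families, drawn up after these values were seen, lay in the same range. The complex I subunits share members with the respiratory chain list above, such as Ndufs1, Ndufv1 and Ndufa9. The citric acid cycle genes share Sdha, Sdhb, Sdhc and Sdhd with it. The values of these overlapping families are therefore not independent of that list. Of 34 complex I subunits, Ndufs3 was called (-0.94, SE 0.21, adjusted p = 0.0471 in limma), 22 were wholly lower and the median was -0.60. All 15 genes of the citric acid cycle had estimates below 0, 11 of them without overlap, with a median of -0.48 and 0 calls. Of 73 mitochondrial ribosomal proteins 68 were below 0 and 13 wholly lower, against 9.34% of all genes, with a median of -0.50. Mrpl15 alone of them passed, at 9.67, 9.28 and 9.20 with ribociclib against 10.41, 10.57 and 10.73 with palbociclib (-1.19, SE 0.21, adjusted p = 0.0171 in limma). The mitochondrial ribosomal median was -0.11 on ribociclib replicate A and overlapped the palbociclib arrays, which ran from -0.28 to 0.23.

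**Figure D1:**
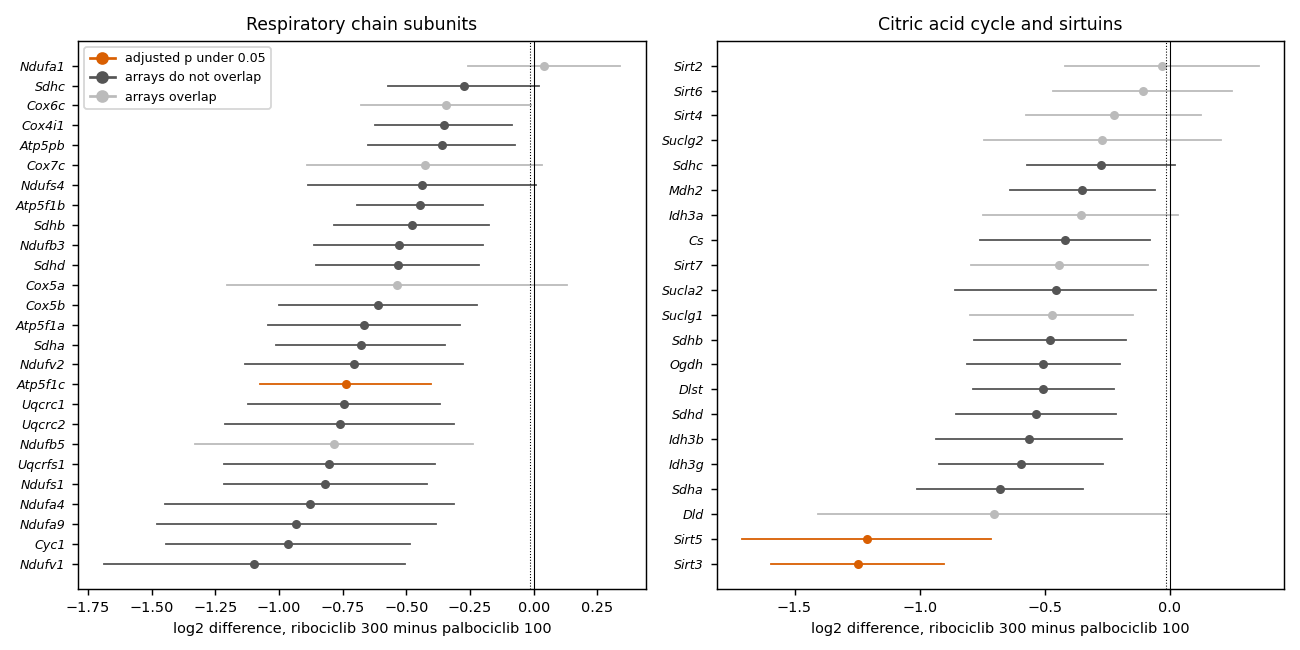
Log2 difference of ribociclib 300 minus palbociclib 100 with its 95% interval from limma, for 26 respiratory chain genes (left) and for citric acid cycle genes and sirtuins (right). The dotted line marks the median of all genes, -0.01; estimates lie below 0 for all but Ndufa1, and Atp5f1c, Sirt3 and Sirt5 passed the adjusted threshold.

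The mitochondrial carriers of the SLC25 family did not move one way. Of 39 measured, 4 were called lower and 1 higher, against 0.45% and 0.373% of all genes, with a median of -0.08. Wholly lower were 8 and wholly higher 2, against 9.34% and 6.43% of all genes. The family was added after the values were seen. The 4 that fell were Slc25a12, the aspartate-glutamate carrier (-1.46, SE 0.25), Slc25a15, the ornithine carrier of the urea cycle (-1.29, SE 0.24), Slc25a10, the dicarboxylate carrier (-0.79, SE 0.17) and Slc25a11, the oxoglutarate-malate carrier (-0.69, SE 0.14). Slc25a12 measured 6.35, 6.66 and 6.71 with ribociclib, 7.91, 8.25 and 7.95 with palbociclib and 7.81, 7.86 and 7.87 with vehicle, so that palbociclib lay slightly above vehicle. The gene that rose, Slc25a25, exchanges ATP-Mg for phosphate under the control of calcium. It measured 9.76, 9.40 and 9.70 with ribociclib, 7.92, 6.95 and 7.01 with palbociclib and 7.19, 7.29 and 7.75 with vehicle. Its difference was 2.33 (SE 0.49, adjusted p = 0.0368 in limma), and with abemaciclib at 36 mg/kg/day it measured 11.15, 9.33 and 11.02.

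Further enzymes of nitrogen, sugar and NAD metabolism fell, picked here after their values were seen. Got2, the mitochondrial aspartate aminotransferase that works with Slc25a11 and Slc25a12 in the malate-aspartate shuttle, measured 9.67, 9.66 and 9.44 with ribociclib and 10.43, 10.94 and 10.78 with palbociclib. Nags, which makes the activator of carbamoyl phosphate synthesis, differed by -1.11 (SE 0.22), Khk, which phosphorylates fructose, was 2.01-fold lower, and Nmnat1, which makes NAD in the nucleus, differed by -1.15 (SE 0.24). Each of these had adjusted p-values between 0.0296 and 0.0368 in limma and each lost its call without palbociclib replicate B.

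Among genes of lipid use, Angptl4, a secreted inhibitor of lipoprotein lipase and a classical PPAR target, was the one call of 24 in the PPARα and fatty acid oxidation list. It measured 5.86, 7.81 and 6.67 with ribociclib, 9.19, 8.83 and 9.22 with palbociclib and 9.66, 9.87 and 9.68 with vehicle. Both compounds lay below vehicle on every array and ribociclib lay lower still. The difference between them was -2.30 (SE 0.48, adjusted p = 0.0368 in limma). The list had a median of -0.33, and -0.22 without palbociclib replicate A. In it 6 genes were wholly lower and 1 wholly higher, against 9.34% and 6.43% of all genes. Cpt2 and Cpt1a, which carry fatty acids into mitochondria, had differences of -1.02 and -0.91 and adjusted p-values of 0.105 and 0.11 in limma. Of 21 genes of fat absorption, Mogat2, which rebuilds diglyceride in enterocytes, fell slightly (12.25, 12.46 and 12.13 against 12.82, 13.00 and 12.83), and the list median was -0.07.

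Cited2, which restrains hypoxia-inducible factor by competing for CBP and p300, fell with ribociclib. It measured 8.62, 8.74 and 8.30 with ribociclib, 10.27, 10.78 and 10.34 with palbociclib and 10.51, 10.26 and 9.97 with vehicle. Palbociclib and vehicle overlapped and ribociclib stood apart from both. The difference was -1.91 (SE 0.22, 3.75-fold, adjusted p = 0.000873 in limma), and the gene's other probe set gave -1.83. Of 23 genes known to respond to hypoxia, Adm and Ddit4 were called higher and 0 lower, against 0.373% and 0.45% of all genes. The family was added after the values were seen. The glycolytic genes Aldoa and Pgk1, in the same family, had negative estimates of -0.48 and -0.39 that did not pass. In the family 5 members were wholly higher and 4 wholly lower, against 6.43% and 9.34% of all genes, and its median was 0.28. It was -0.05 on ribociclib replicate C, -0.0012 without ribociclib replicate B, 0.17 without ribociclib replicate A and 0.18 without palbociclib replicate B or C.

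Il1b, the inflammatory cytokine interleukin 1 beta, was lower with ribociclib on every array. It measured 5.56, 5.20 and 5.32 with ribociclib, 7.14, 7.83 and 7.30 with palbociclib and 7.66, 7.77 and 8.14 with vehicle. The ribociclib arrays lay near the array median, where signal is not shown to exceed background. The difference was -2.07 (SE 0.30, adjusted p = 0.0045 in limma). Il18, a related cytokine made by epithelium, differed by -1.17 and did not pass (adjusted p = 0.0743), and Nlrp6, an inflammasome sensor of the gut lining picked after its value was seen, fell by 1.04. In the list of 26 injury and inflammation genes 1 other member was called, Nfkbia, the feedback inhibitor of NF-κB, which was 2.84-fold higher (SE of the log2 difference 0.32, adjusted p = 0.0368). The list median was 0.43, but 0.13 without ribociclib replicate A and 0.73 without ribociclib replicate B.

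The other large falls included genes of ubiquitin transfer and less studied membrane proteins. Ubac1, a subunit of the ubiquitin ligase that acts on the CDK inhibitor p27, measured 7.65, 7.28 and 6.63 with ribociclib and 8.88, 8.98 and 8.79 with palbociclib (-1.70, SE 0.25, adjusted p = 0.00587 in limma). Cdkn1b, which encodes p27, did not pass, at 9.94, 10.36 and 10.41 against 10.23, 10.50 and 10.26. Trim32, another ubiquitin ligase, measured 6.43, 6.52 and 6.74 against 7.97, 8.41 and 8.38 (-1.69, SE 0.22, adjusted p = 0.00233). Both Ubac1 and Trim32 were without overlap, and each kept its call whichever array was left out. Heatr5a differed by -1.86 (SE 0.26, adjusted p = 0.00363) and Tmem268 by -1.48 (SE 0.20, adjusted p = 0.00233). Tmem268's other probe set gave -0.81 and did not pass.

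Nudt13, a mitochondrial hydrolase of NADH, differed by -1.86 (SE 0.30), Fam210a, a mitochondrial membrane protein, by -1.99 (SE 0.36) and Abcc6, a transporter, by -1.67 (SE 0.36), with adjusted p-values of 0.0103, 0.0199 and 0.0409 in limma. All 3 lost the call without palbociclib replicate B. Fam210a and Abcc6 were each called in 2 of the 6 fits that left out an array. Tmem229a had a difference of -2.16 on its brightest probe set (adjusted p = 0.0231), but its other probe sets gave 0.03 and -0.11, so the probe sets of this gene disagreed. The other probe set of Fam210a gave -1.02 and did not pass.

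Small MAF factors, which pair with NRF2 and BACH proteins on antioxidant response elements, were among the clearest rises. Maff measured 9.02, 9.63 and 9.10 with ribociclib, 7.13, 6.11 and 5.71 with palbociclib and 6.08, 6.09 and 6.81 with vehicle. The lowest ribociclib array lay well over a unit above the highest of the other groups. The difference was 2.93 (SE 0.34, 95% interval 2.21 to 3.65), 7.64-fold, with an adjusted p of 0.000873 in limma. Mafk measured 11.17, 11.08 and 11.16 with ribociclib, 10.22, 9.94 and 9.96 with palbociclib and 9.82, 9.86 and 10.01 with vehicle, a difference of 1.09 (SE 0.14, adjusted p = 0.00217). Mafg, the third small MAF, did not pass, with 0.24 (95% interval -0.40 to 0.87). Of 17 NRF2 antioxidant targets 0 were called, and their median was 0.06.

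Adm, the vasodilator peptide adrenomedullin, measured 7.84, 10.52 and 8.47 with ribociclib, 5.61, 6.19 and 6.15 with palbociclib and 5.20, 5.39 and 5.51 with vehicle. Ribociclib replicate B was the highest by about 2 log2 units, and no abemaciclib array exceeded 5.58. The difference was 2.96 (SE 0.45, adjusted p = 0.00601 in limma). Ddit4, which restrains mTORC1 under stress, measured 9.14, 10.67 and 9.35 with ribociclib against 7.91, 7.08 and 7.21 with palbociclib, again highest on replicate B, and differed by 2.32 (SE 0.36, adjusted p = 0.00733). Without palbociclib replicate B the adjusted p for Ddit4 was 0.0608.

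Tcim, a small regulator of transcription and immune signalling, separated the compounds on both sides of vehicle. It measured 11.82, 11.42 and 11.04 with ribociclib, 9.50, 8.08 and 9.44 with palbociclib and 10.14, 10.25 and 10.36 with vehicle. All ribociclib arrays lay above vehicle and all palbociclib arrays below it. The difference between the compounds was 2.42 (SE 0.34, adjusted p = 0.00388 in limma), while neither compound passed against vehicle. Cmtm3, a MARVEL domain protein, measured 9.80, 9.29 and 9.71 with ribociclib, 6.74, 6.29 and 7.63 with palbociclib and 7.81, 8.10 and 8.90 with vehicle and lay in the same order. Prss23, a serine protease, also did so, at 10.59, 10.25 and 11.29, then 8.44, 6.58 and 8.32, then 8.77, 8.95 and 8.83. For 109 of the 117 called genes, 47 higher and 62 lower, the ribociclib mean lay farther from the vehicle mean than the palbociclib mean did, and Tcim and Cmtm3 were among the other 8.

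Plaur, the urokinase receptor, measured 10.28, 11.04 and 10.06 with ribociclib, 8.86, 7.10 and 7.46 with palbociclib and 6.83, 6.82 and 7.56 with vehicle. Its other probe set gave 0.42 and did not pass. Tsc22d2 differed by 2.49 (SE 0.55) and its palbociclib arrays were uneven, at 7.96, 5.72 and 5.66. Atp11a, a phospholipid flippase, differed by 2.11 (SE 0.41) and Hist4h4, a histone H4 gene, by 3.10 (SE 0.66). Probes for Hist4h4 may read near-identical copies of the histone H4 family. Klf10, an early target of TGF-β signalling, measured 11.34, 11.29 and 10.83 against 9.87, 9.70 and 10.17, a difference of 1.24 (SE 0.18, adjusted p = 0.00531 in limma). Smad7, the inhibitor of the same pathway, was 3.08-fold higher, Lats2, a kinase of the Hippo pathway, 2.84-fold and Foxo3, a transcription factor held in check by AKT, 2.3-fold. Smad7, Lats2 and Foxo3 were picked after their values were seen.

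**Figure D2:**
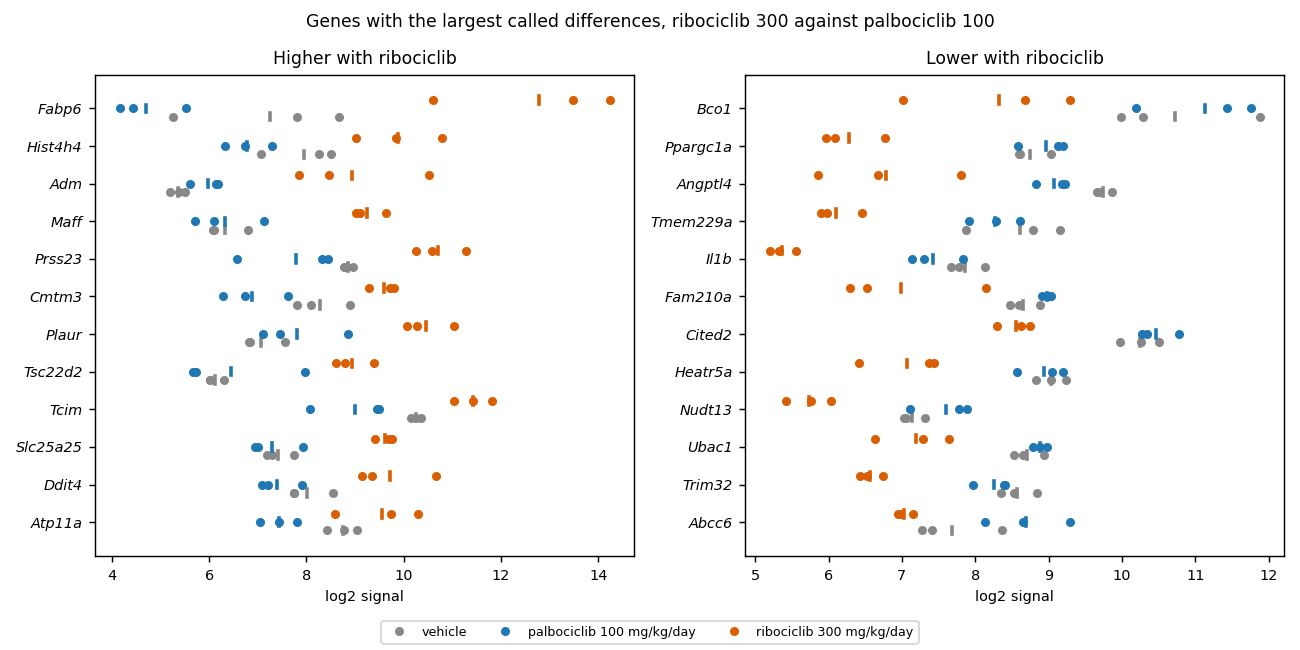
Log2 signal of the 12 genes with the largest rise (left) and the 12 with the largest fall (right) among called genes, one point per array with a bar at each mean of 3 arrays, for vehicle, palbociclib 100 and ribociclib 300. Ribociclib and palbociclib points do not overlap for any gene, and the vehicle mean lies between the compounds for 9 of the rises and 7 of the falls, close to palbociclib for Ppargc1a (means 8.75 and 8.97) and farther from it for Fabp6 (7.24 and 4.70).

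Immediate early genes, which cells transcribe within minutes of a signal, had estimates mostly above 0. Of 21 measured, 2 were called higher, Dusp1 and Egr2, against 0.373% of all genes. Wholly higher were 12, against 6.43% of all genes, and 20 had estimates above 0. The median was 0.93, against -0.01 over all genes, and it was 1.23, 0.94 and 0.69 on ribociclib replicates A, B and C while the palbociclib arrays lay between -0.13 and 0.11. Dusp1, a phosphatase that switches off MAP kinases, measured 11.93, 10.36 and 10.82 with ribociclib, 9.51, 9.24 and 8.26 with palbociclib and 9.64, 9.37 and 9.47 with vehicle. It was highest on ribociclib replicate A, and ribociclib did not overlap the others. The difference was 2.04 (SE 0.41, adjusted p = 0.0325 in limma). Egr2, a zinc finger factor, measured 6.67, 6.20 and 5.10 against 4.51, 4.44 and 4.26, with every palbociclib array below the array median.

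Other members had large estimates without passing. Egr1, the relative of Egr2, measured 12.08, 9.06 and 12.03 with ribociclib and 8.60, 8.78 and 7.86 with palbociclib, so that ribociclib replicate B was near palbociclib. Its difference was 2.65 (SE 0.61) with an adjusted p of 0.0537 in limma. Fosb, an AP-1 subunit, differed by 3.37 (SE 0.86) with overlap and an adjusted p of 0.0684. Klf6 and Junb differed by 1.25 and 1.45, with adjusted p-values of 0.0574 and 0.0618. Fos itself differed by 0.60 and its arrays overlapped.

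The integrated stress response, in which ATF4 turns on genes of amino acid supply, held 3 called genes. Of 26 genes Ddit4, Gdf15 and Nupr1 were called higher, against 0.373% of all genes. Wholly higher were 12 and wholly lower 0, against 6.43% and 9.34% of all genes. The median was 0.74, or 0.42 without ribociclib replicate B and 0.91 without ribociclib replicate A. By array the median was 0.34, 1.09 and 0.37 on ribociclib replicates A, B and C, and -0.15 to 0.11 on the palbociclib arrays. Nupr1, a stress-induced chromatin protein, measured 8.62, 9.30 and 9.43 with ribociclib, 7.48, 8.08 and 8.11 with palbociclib and 8.24, 8.66 and 8.50 with vehicle. Palbociclib lay below vehicle on every array, and the difference of 1.23 (SE 0.25, adjusted p = 0.0368 in limma) spans both. Nupr1 was called in 1 of the 6 fits that left out an array. Gdf15, a stress cytokine, measured 5.18, 5.40 and 5.26 against 4.31, 4.23 and 4.62, all near or below the array median.

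Ppp1r15a, which restores translation after stress, measured 9.48, 10.06 and 9.71 with ribociclib, 8.80, 7.87 and 7.86 with palbociclib and 6.57, 7.27 and 7.13 with vehicle. Both compounds lay above vehicle, and ribociclib above palbociclib, with a difference of 1.57 (SE 0.38) that missed the threshold (adjusted p = 0.0572 in limma). Asns, asparagine synthetase, differed by 1.23 (adjusted p = 0.0897) and Chac1, which degrades glutathione, by 1.18 (adjusted p = 0.0883). Ddit3 and Trib3 were raised on ribociclib replicate B, at 11.75 and 11.06, against 9.63 and 8.52 on replicate A, and did not pass. Of 19 genes of the unfolded protein response 0 were called and the median was -0.34, or -0.11 without ribociclib replicate B and -0.19 without palbociclib replicate B. Of 13 heat shock genes, Dnajb1, a partner of HSP70, rose by 1.49 (SE 0.27, adjusted p = 0.0199), whereas Hsph1 had an estimate of -1.28 that did not pass, and the list median was -0.28, or -0.13 without ribociclib replicate C. Plk2, a stress-induced kinase, and Gdf15 were called higher among 16 p53 targets and apoptosis genes, against 0.373% of all genes. The p53 target Cdkn1a, which encodes p21, differed by 0.68 without overlap and did not pass (adjusted p = 0.158).

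**Figure D3:**
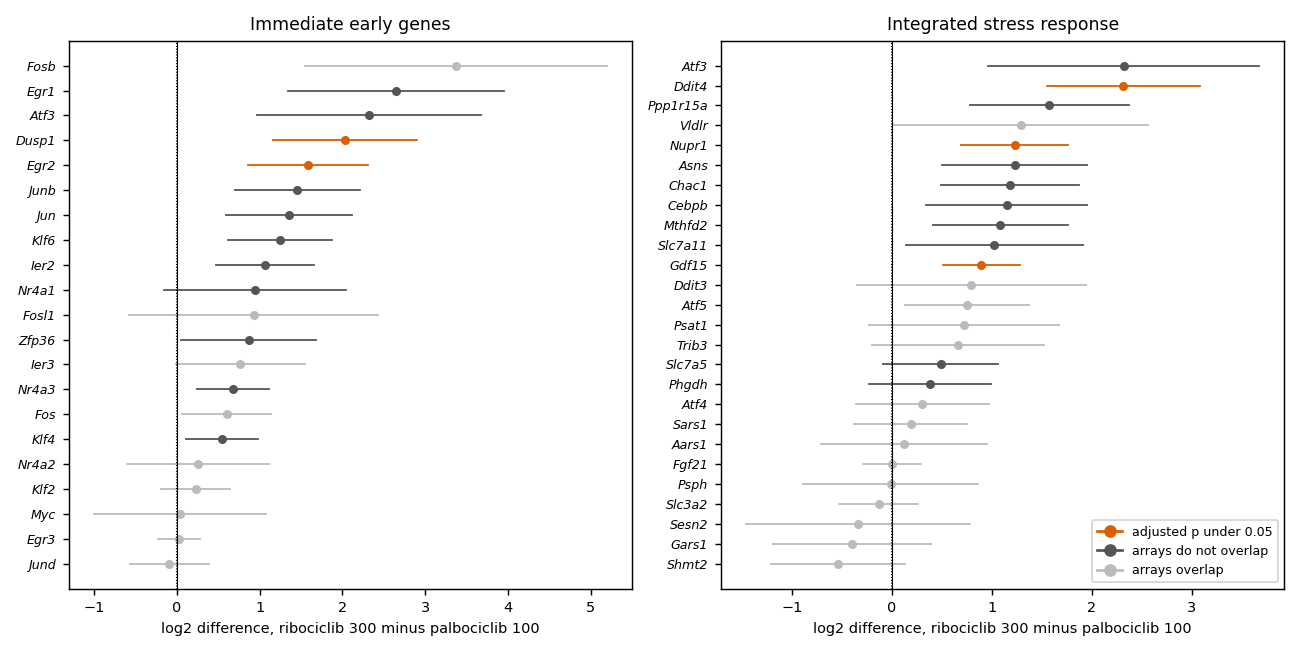
Log2 difference of ribociclib 300 minus palbociclib 100 with its 95% interval from limma, for 21 immediate early genes (left) and 26 genes of the integrated stress response (right). Most estimates lie above 0, with medians of 0.93 (0.64 to 1.15 with an array left out) and 0.74 (0.42 to 0.91), and Dusp1, Egr2, Ddit4, Nupr1 and Gdf15 passed the adjusted threshold.

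Promoter sequences were read for the called genes because several of those that rose are known to respond to cyclic AMP and stress signals. RefSeq windows of the GRCr8 build, 250 bases before to 50 after a gene's start, matched 43 of the 53 genes that rose, 55 of the 64 that fell and 11700 of all genes measured. The palindromic cAMP response element TGACGTCA was found in 7 of the 43 (16.3%), in 2 of the 55 (3.64%) and in 2.85% of all windows. The sequences below show it in 4 genes that rose and in Ppargc1a, which fell, each 5′ to 3′ on the gene's strand with the element in capitals and 30 bases on either side. They lie at chr7:112792706-112792773 (Maff, plus strand), chr10:17184699-17184766 (Dusp1, plus), chr2:43702440-43702507 (Plk2, plus), chr3:36116702-36116769 (Slc25a25, minus) and chr14:63634097-63634164 (Ppargc1a, plus).
Maff: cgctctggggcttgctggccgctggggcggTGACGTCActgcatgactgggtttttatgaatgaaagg
Dusp1: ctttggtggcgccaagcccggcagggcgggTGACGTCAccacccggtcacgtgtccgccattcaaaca
Plk2: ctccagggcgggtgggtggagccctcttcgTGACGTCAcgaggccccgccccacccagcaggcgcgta
Slc25a25: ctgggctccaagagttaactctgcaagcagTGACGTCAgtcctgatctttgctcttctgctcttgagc
Ppargc1a: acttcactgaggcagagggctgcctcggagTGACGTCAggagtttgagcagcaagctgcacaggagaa
The same element thus stood in genes that moved in opposite directions. A match describes the letters in the window and shows neither binding nor a cause.

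Of the 12 motifs searched, on both strands and chosen after the gene values were seen, the shorter element TGACG, which lies within TGACGTCA, was in 46.5% of the windows of genes that rose, 23.6% of those that fell and 29.2% of all. The E-box CACGTG was in 16.3%, 7.27% and 8.94%. The NRF1 motif GCGCANGCGC was in 0% of genes that rose, in 14.5% of genes that fell and in 8.5% of all. The MAF element TGCTGA was in 11.6%, 14.5% and 16.5%, AP-1 in 4.65%, 1.82% and 3.79%, the ATF4 and CHOP motif TGNTGCAA in 2.33%, 1.82% and 2.7% and the CArG box in 4.65%, 1.82% and 1.35%. NF-κB (GGGANTTTCC) was in 2.33%, 0% and 0.41%. The heat shock element GAANNTTCNNGAA, ERR TCAAGGTCA and YY1 AAGATGGC were in 0% of both called sets, against 0.453%, 0.214% and 4.72% of all windows.

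Of the genes that mark position along the intestine, ileal Fabp6 rose and proximal Bco1 fell. Fabp6, the bile acid carrier of the ileal enterocyte, measured 14.24, 10.60 and 13.48 with ribociclib, 4.16, 4.43 and 5.52 with palbociclib and 7.81, 8.67 and 5.25 with vehicle. It was high on every ribociclib array and near or below the array median on the palbociclib arrays, with the vehicle mean between. The difference was 8.07 (SE 1.55, 95% interval 4.80 to 11.34, adjusted p = 0.0269 in limma) and rests on a palbociclib signal not shown to be above background. Without palbociclib replicate B the adjusted p was 0.127. The gene varied within groups as well, from 4.10 to 11.85 with abemaciclib at 36 mg/kg/day, while abemaciclib at 120 mg/kg/day gave 13.56, 13.35 and 12.95.

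Of 7 genes of bile acid uptake and FXR targets, Abcb11, the bile salt export pump, was the other call. It measured 4.14, 4.89 and 4.67 against 3.70, 3.40 and 3.98, all below the array median. Over all genes 0.373% were called higher. Slc10a2, the ileal bile acid transporter, measured 8.15, 5.10 and 6.80 with ribociclib and 6.19, 5.47 and 4.78 with palbociclib and did not pass. The list median was 0.79, or 0.47 without ribociclib replicate A, and 1.34, 0.05 and 0.73 on ribociclib replicates A, B and C. Replicate B was also the lowest of the ribociclib arrays for Fabp6.

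Bco1, which cleaves carotene to retinal in the proximal gut, was the largest called fall. It measured 8.68, 9.29 and 7.01 with ribociclib, 10.19, 11.43 and 11.75 with palbociclib and 11.88, 9.99 and 10.28 with vehicle. The difference was -2.80 (SE 0.59, adjusted p = 0.0368 in limma), and the adjusted p without palbociclib replicate B was 0.177. No array of any other group, abemaciclib included, was as low as the highest ribociclib array. Among 11 genes of proximal identity Bco1 was the one call. Estimates lay below 0 for 8 of them and above 0 for 3, the highest at 0.35. Wholly lower were 4, against 9.34% of all genes, and the median was -0.60. That median was -1.05, -0.32 and -1.10 without palbociclib replicates A, B and C and -0.40 without ribociclib replicate A. Gata4, the factor that maintains jejunal against ileal identity, measured 6.89, 8.56 and 6.99 with ribociclib and 9.23, 9.85 and 9.05 with palbociclib and missed the threshold (-1.90, adjusted p = 0.059).

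Onecut2 and Slc40a1, also of the proximal list, were uneven. Onecut2, a proximal transcription factor, measured 3.98, 4.08 and 3.90 with ribociclib and 7.02, 10.17 and 4.53 with palbociclib, where replicate B was highest. Slc40a1, the iron exporter ferroportin, measured 7.92, 10.99 and 8.53 against 10.35, 12.03 and 9.98, again highest on palbociclib replicate B. Neither passed. Vehicle replicate A was likewise high for Onecut2, at 8.37, against 4.01 and 4.66 on vehicle replicates B and C. The proximal list had medians of -0.22, 0.31 and -0.11 on the palbociclib arrays and -0.52, -0.23 and -0.57 on the ribociclib arrays. Where along the jejunum each scraping was taken is not given in the labels, and its part in these differences was not tested.

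**Figure D4:**
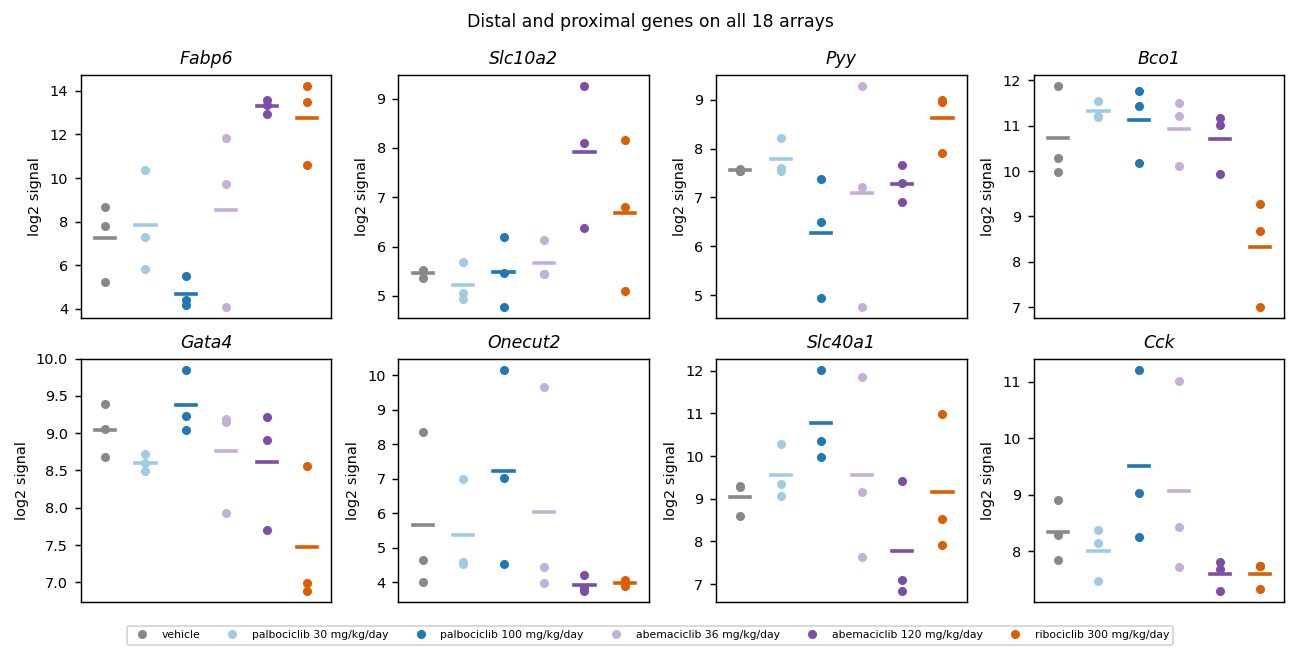
Log2 signal of Fabp6, Slc10a2 and Pyy, genes of the distal gut, and of Bco1, Gata4, Onecut2, Slc40a1 and Cck, genes of the proximal gut, on all 18 arrays with a bar at each mean of 3 arrays. Ribociclib and palbociclib 100 do not overlap for Fabp6, Pyy, Bco1, Gata4, Onecut2 and Cck, and Fabp6 with ribociclib (10.60 to 14.24) is close to abemaciclib 120 (12.95 to 13.56). Of the 11 genes of the proximal list, 3 had estimates above 0 and are not shown.

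Hormones of enteroendocrine cells showed estimates on both sides of 0. Of 17 genes 0 were called, and 7 were wholly higher and 1 wholly lower, against 6.43% and 9.34% of all genes. The median was 0.28, or 0.12 without ribociclib replicate C. Pyy, a hormone of the distal gut, lay at 7.90 or more on each ribociclib array and measured 6.50, 4.95 and 7.39 with palbociclib (2.34, adjusted p = 0.155 in limma). Cck, made mainly in the proximal gut, measured 7.34, 7.74 and 7.74 against 9.04, 11.21 and 8.26 (-1.90, adjusted p = 0.21). Other hormones differed by 1.64 (Nts), 0.68 (Sct), 0.07 (Gcg), -0.33 (Sst), -0.42 (Gip) and -2.62 (Ghrl), none passing. In the list 12 estimates lay above 0 and 5 below, and Pyy and Cck do not stand for the hormones as a group. Scg2, a granin of the secretory granule, measured 7.21, 6.97 and 8.03 against 5.33, 5.40 and 5.96 and came nearest to the threshold (adjusted p = 0.0582). Cpe, the carboxypeptidase that matures peptide hormones, picked after its value was seen, rose by 1.35 (SE 0.29, adjusted p = 0.0368).

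The genes on which both compounds act showed no called difference. Cdk4 measured 8.48, 6.24 and 6.59 with ribociclib and 7.17, 7.55 and 7.42 with palbociclib, a difference of -0.27 (95% interval -1.24 to 0.70). Ccnd1, cyclin D1, differed by -0.54 (95% interval -1.66 to 0.57), Rb1, the retinoblastoma gene, by -0.39 (95% interval -0.78 to 0.01) and Cdk6, with signal below the array median, by 0.08 (95% interval -0.15 to 0.32). These intervals leave room for differences of over 2-fold in Cdk4 and Ccnd1. The 8 genes of this list had a median of -0.24, which was 0.01 without ribociclib replicate B and -0.05 without ribociclib replicate C.

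Proliferation genes were likewise without calls. Over 33 genes of G1/S and DNA replication the median was 0.03. Mcm10, of replication, measured 10.24, 5.81 and 9.05 with ribociclib against 6.11 to 6.75 with palbociclib and did not pass (adjusted p = 0.246 in limma). Over 36 genes of G2/M and mitosis the median was -0.01. The mitotic median was 1.08, -0.28 and -0.65 on ribociclib replicates A, B and C, a wider spread than that of the palbociclib arrays (-0.40 to 0.26), and it ran from -0.49 without ribociclib replicate A to 0.33 without ribociclib replicate C. Mki67, a marker of cycling cells, measured 8.38, 7.28 and 5.43 against 7.74, 8.06 and 7.93, and its difference of -0.88 had a 95% interval from -2.23 to 0.47. E2f2, of the G1/S list, measured 8.14, 7.70 and 6.95 against 8.36, 9.61 and 8.89 and missed the threshold (-1.36, adjusted p = 0.0651 in limma). The stem cell list of 12 genes had a median of 0.02, with Lgr5 near 4 on every array and Axin2, a Wnt target, at -0.58 without passing.

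The lists of goblet, tuft, enteroendocrine and brush border genes held no call. Mogat2 was the one call of the fat absorption list. Nupr1, described above as a stress-induced gene, was the one call of the Paneth list. Fabp6 and Bco1, given above with the genes of gut position, were also called. Muc2, the goblet cell mucin, differed by 0.15 (95% interval -0.09 to 0.38) and Fabp1, of enterocytes, by -0.04 (95% interval -0.20 to 0.11). Alpi, the brush border alkaline phosphatase, measured 9.61, 13.02 and 10.22 with ribociclib and 12.75, 13.03 and 12.60 with palbociclib, so that ribociclib replicate B lay with palbociclib, and the difference of -1.84 did not pass (adjusted p = 0.162 in limma). Treh, the brush border trehalase, measured 6.49, 7.71 and 6.77 against 8.75, 9.19 and 8.17, wholly lower, and did not pass (-1.71, adjusted p = 0.0948). The 16 genes of the brush border list had a median of 0.06, with 10 above 0 and 6 below. Of 18 transporters of sugars, peptides, amino acids and ions 0 were called and 15 had estimates below 0. Wholly lower were 5, against 9.34% of all genes, and the list median was -0.36. Cyp1a1, a target of the aryl hydrocarbon receptor, ran from 5.17 to 9.14 with ribociclib and from 8.06 to 10.03 with palbociclib and did not pass.

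Immune and stromal lists held no called gene. The 22 T and NK cell genes had a median of -0.02 between the compounds (-0.27 to 0.22 with an array left out), and lay at -0.98 for ribociclib and -0.99 for palbociclib against the shared vehicle arrays. In bulk tissue fewer cells of a type and less RNA per cell cannot be told apart. Of 34 interferon-stimulated genes 5 were wholly higher and 3 wholly lower, against 6.43% and 9.34% of all genes. Their median was 0.70, and -0.03, 1.68 and 0.69 on ribociclib replicates A, B and C. Bst2, an antiviral membrane protein, measured 7.93, 8.62 and 7.85 against 6.45, 6.75 and 6.48 and missed the threshold (adjusted p = 0.0707 in limma). Without ribociclib replicate A the median was 1.21 and 7 of the 34 were called higher, when 262 of all genes were, and without ribociclib replicate B the median was 0.37. All 19 fibroblast and collagen genes had estimates above 0, with a median of 0.71, but none was wholly higher, and the median was 0.23 without ribociclib replicate A and 1.20 without ribociclib replicate B. Ctrc, a pancreatic protease, was the one call of 15 acinar genes, at 5.83, 6.52 and 6.83 against 4.81, 4.75 and 4.79, with every palbociclib array below the array median, and the list median was 0.03.

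**Figure D5:**
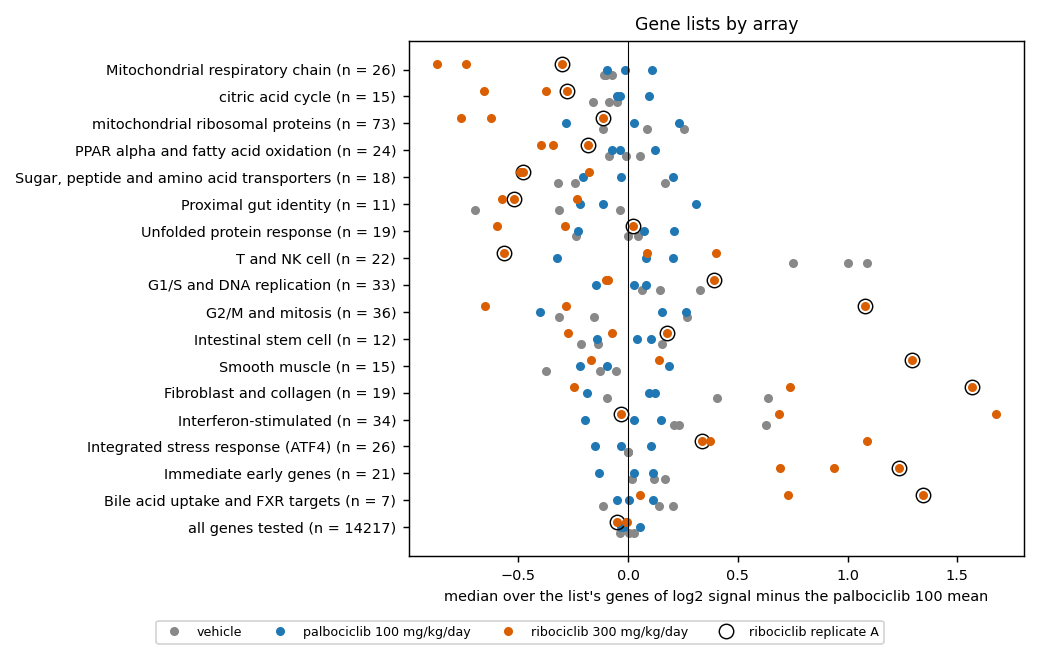
Median over the genes of each list of log2 signal minus the palbociclib 100 mean, by array, for vehicle, palbociclib 100 and ribociclib 300, with ribociclib replicate A circled. Respiratory chain genes lie below palbociclib on all ribociclib arrays (-0.30 to -0.87) and immediate early genes above (0.69 to 1.23). Mitotic, smooth muscle and fibroblast medians are highest on replicate A. The fibroblast median also lies above the palbociclib arrays (-0.19 to 0.12) on replicate C, at 0.74, but not on replicate B, at -0.25.

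Where the remaining groups lay was read for the same 24 genes against the midpoint of the ribociclib and palbociclib means. Palbociclib at 30 mg/kg/day was on the palbociclib side for all 12 rises and all 12 falls. The vehicle mean was mostly on that side too, and on the ribociclib side for 3 of the 12 rises and 1 of the 12 falls. Abemaciclib at 36 mg/kg/day was on the ribociclib side for 4 of the 12 rises and 4 of the 12 falls, and abemaciclib at 120 mg/kg/day for 7 and 6. The title of abemaciclib replicate B at 120 mg/kg/day names a lower dose than its treatment label. The treatment label was used throughout, so every value given for abemaciclib at 120 mg/kg/day rests on it. Ppargc1a, Cited2 and Trim32 were low at both abemaciclib doses, with Cited2 at 8.66 ± 0.21 (SD, n = 3) and 8.67 ± 0.32 (SD, n = 3) against 8.56 ± 0.23 (SD, n = 3) for ribociclib. Il1b was low with abemaciclib at 120 mg/kg/day (5.65 ± 0.59, SD, n = 3) and not at 36 mg/kg/day (7.51 ± 0.10, SD, n = 3). Ubac1 and Adm stayed near palbociclib at both abemaciclib doses.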

How the data were processed

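Affymetrix rat whole-genome arrays were deposited as log2 values per probe set, which the authors made with RMA, per the submitters' processing notes, which also name Affymetrix Expression Console and Transcriptome Analysis Console without settings. RMA equalises signal between arrays, so a change in total RNA per cell would not show. The values lay between 2.86 and 14.34, and no arrays were identical. Of 31099 probe sets, 57 controls, 436 with several symbols and 9780 unnamed here were left out, and 20826 had 1 symbol. Each of 14217 genes was read from its brightest probe set, judged by the mean of all arrays. Genes left out of a list had no probe set used here.

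All 18 arrays entered 1 linear model of group means (limma 3.58.1, R 4.3.3), with an intensity trend and 12 residual degrees of freedom. Two-sided p-values were adjusted by Benjamini-Hochberg over all genes, at a threshold of 0.05. "Called" means past that threshold. For a single gene, 3 arrays against 3 allow no exact permutation p under 0.1. The number of arrays limits the precision. List medians carry no test. Tables and figures used Python 3.11.15.

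Genes named were the 12 largest called rises and 12 largest called falls without overlap or placeholder symbols, members with the smallest p of the lists described (up to 4 a list), and a group of CDK4/6 pathway genes and intestinal markers (Alpi, Axin2, Ccnd1, Cdk4, Cdk6, Cdkn1a, Cyp1a1, Fabp1, Lgr5, Mki67, Muc2, Rb1). Other names were chosen after their values were seen. The comparison, the lists and the tests were chosen with earlier results of these data known. Alternatives were other normalizations, probe set rules and filters, a fold of at least 1.5, the replicate letter as a block, an RNA quality covariate, only the groups compared, and leaving out each array. The labels do not say that the replicate letters pair animals, and the main fit did not use them. The fit was checked on simulated data first.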

Additional observations from a re-analysis of the deposited data

How the results depend on the processing

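For ribociclib against palbociclib the count of called genes was 96 to 151 with quantile re-normalization, centring, the mean of all probe sets, every probe set, no intensity trend or the RNA quality covariate, against 117. It was 219 with dim genes left out, when 109 of the 117 were called, and 0 with only the groups compared. With an array left out it ran from 17 to 641. For ribociclib against vehicle it was 29 with only the groups compared and 120 to 1317 with an array left out, against 531, the lowest without vehicle replicate C and the highest without ribociclib replicate A. For palbociclib against vehicle it was 0 to 1 with an array left out and 0 under each other alternative. The fit with only the groups compared has fewer arrays to estimate the spread and leaves out the spread of the other groups. Deviations from the group mean had SDs of 0.30 to 0.43 on the ribociclib arrays. They were 0.21 to 0.27 on the palbociclib 100 arrays and 0.17 to 0.23 on the vehicle arrays. The cause of these changes in count was not tested.

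With the replicate block 195 genes were called, 116 of them among the 117. Deviations of arrays with the same letter correlated at -0.17, -0.073 and 0.105 between ribociclib and palbociclib. With vehicle the correlations ran from -0.31 to 0.202 for ribociclib and from -0.08 to 0.178 for palbociclib. With 3 arrays a group these values cannot settle whether the letters pair animals, and the letters are not taken as pairs. Of the 117 called genes 0 changed sign in an alternative that gives 1 value per gene. With every probe set as a feature, another probe set of Tmem229a gave 0.03 against -2.16. Signal not shown to be above background limits Fabp6, Abcb11, Egr2, Gdf15, Il1b and Ctrc, among others, and 3 arrays a group limit all differences.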

Other observations

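Some of the widest estimates did not pass limma's threshold. Of 23 drug-metabolising genes 5 were wholly lower with ribociclib and 1 wholly higher, against 9.34% and 6.43% of all genes. Ugt2b35, a glucuronosyltransferase, measured 4.33, 6.19 and 5.04 against 8.19, 10.19 and 9.68 with palbociclib (-4.16, adjusted p = 0.125). It was the most negative estimate of all genes, and vehicle arrays varied from 6.03 to 10.47. Slc34a2, a phosphate transporter, measured 6.08, 10.78 and 6.48 against 10.14, 11.90 and 10.60 (-3.10, adjusted p = 0.149), and ribociclib replicate B overlapped palbociclib.

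Ly6al, a member of the Ly6 family, measured 12.35, 10.62 and 11.89 with ribociclib, 5.81, 5.03 and 10.94 with palbociclib and 5.95, 6.44 and 5.79 with vehicle. Palbociclib replicate C alone of its group was high, and the difference of 4.36 did not pass (adjusted p = 0.0721). Abemaciclib at 120 mg/kg/day gave 12.13, 11.22 and 11.73. Tcf4, a basic helix-loop-helix factor, measured 9.03, 8.76 and 8.28 with ribociclib, 6.69, 7.06 and 6.67 with palbociclib and 7.60, 7.87 and 7.32 with vehicle, so that vehicle lay between the compounds, and it was called (1.88, SE 0.32, adjusted p = 0.0143 in limma). These genes were picked after their values were seen.

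Among lists not described above, 2 of 15 glucocorticoid targets were called higher, against 0.373% of all genes. These were Ddit4 and Dusp1, which also belong to lists above. The median was 0.48, or 0.27 without palbociclib replicate B, and Klf9, a target of that receptor, measured 9.15, 8.18 and 9.67 against 7.72, 7.57 and 7.76 and did not pass (adjusted p = 0.0618). Msmo1, of cholesterol synthesis, measured 11.72, 10.45 and 10.34 with ribociclib against a highest palbociclib array of 9.77 (1.58, adjusted p = 0.082), and 0 of the 19 genes of that list were called. Tiparp, a target of the aryl hydrocarbon receptor, measured 12.08, 10.63 and 11.87 against 9.86, 10.53 and 9.91 (1.43, adjusted p = 0.0572). Bhlhe40, of the clock and of the response to hypoxia, measured 10.38, 10.03 and 9.75 against 7.64, 8.43 and 8.43 (1.88, adjusted p = 0.0674), and 0 of 17 clock genes were called.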
